A study of Drosophila melanogaster with 4 samples.

Results

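The genes of lipid transport and fatty acid synthesis followed here in heads of male flies fed vigabatrin were the 9 genes apolpp, Apoltp, Mtp, Npc2a, ATPCL, AcCoAS, FASN1, Desat1 and Hnf4. A spotted cDNA array held 15 probes whose annotation gave exactly 1 of these 9 genes, out of 13824 probes in all and 7558 with a single gene, which name 6793 genes. Of the 15, 7 probes of 6 genes had a value on all 4 arrays, 4 had values on 1 or 2 arrays and 4 had none. The genes were chosen by their function with earlier VGB over NF log ratios of these same 4 arrays in view, in which apolpp, AcCoAS, FASN1 and Desat1 lay below the array medians in 1 reading of the signs, so their values are given as a description, and counts of members past a threshold stand beside the share of all probes with nothing read from them.

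Unmated male Drosophila melanogaster of the wild-type strain Oregon-R, aged 10 to 11 days, spent 3 days on food with vigabatrin at 24 mg per ml (VGB) or on normal food (NF), at 24 ºC with 30 flies per vial. Vigabatrin is an antiepileptic drug that inhibits GABA transaminase, which degrades the inhibitory transmitter GABA. RNA of pooled whole heads from 4 parallel sets, each with a VGB and an NF pool, was hybridised as VGB and NF pairs to 4 two-colour arrays. VGB carried Cy5 and NF Cy3 on replicates 1 and 2, and VGB carried Cy3 and NF Cy5 on replicates 3 and 4.

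Insects carry lipid through the haemolymph on lipophorin, a lipoprotein whose structural subunits are cut from the precursor encoded by apolpp and made in the fat body. The microsomal transfer protein Mtp and the lipid transfer particle protein encoded by Apoltp, both relatives of apolpp, load lipid onto it. Inside cells, ATPCL and AcCoAS supply acetyl-CoA, the fatty acid synthase FASN1 builds it into saturated chains, and the desaturase Desat1 adds the double bond. Npc2a binds sterols in the lysosome, and Hnf4 is a nuclear receptor that, in flies, promotes the breakdown of stored fat. In the head these genes can be expressed in fat body and cuticle-associated cells as well as in brain and eye. In pooled heads, fewer cells of a type and less RNA per cell cannot be told apart.

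The values are log ratios of the 2 dyes, taken as log2 since no source states the base, and each is stated relative to the median of its array. The sign on the dye-swapped arrays is not settled, so 2 readings stand side by side. The turned reading takes every value as Cy5 over Cy3, the order in which the design text writes its 635 nm over 532 nm ratio, and changes the sign of replicates 3 and 4. The unturned reading takes all 4 arrays as VGB over NF. On replicates 1 and 2 the readings give the same value, and on replicates 3 and 4 they differ in sign only. The sample titles name NF before VGB, and were the ratios written in that order on every array, all signs of the unturned reading would change. Arrays had between 2559 and 6460 spots with a value, and deposited array medians ran from 0.44 to 1.03. Means are over arrays with the SD, and the number of arrays limits their precision.

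The lipophorin precursor gene apolpp lay furthest below the array medians among the 6 genes measured on all 4 arrays, in the turned reading. Its first probe had VGB over NF log2 ratios of -0.61, -0.83, -0.10 and -0.91 on replicates 1 to 4, with a mean of -0.61 ± 0.36 (SD, n = 4). Its second probe had -0.20, -1.08, -0.82 and -0.47, with a mean of -0.64 ± 0.39 (SD, n = 4). Every one of these 8 values was below 0, and 9 and 12 of the 1114 probes measured on at least 3 arrays had a lower mean than the second and the first probe. The unturned means were -0.11 ± 0.79 and 0.00 ± 0.84 (SD, n = 4 each), because replicates 3 and 4 then stood above 0 and replicates 1 and 2 below it. In that reading 908 and 705 of the 1114 probes had a higher mean than the first and the second probe. Because apolpp was listed with these ratios in view, nothing is read from its ranks.

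The pair of apolpp probes gave the same sign on each array but ordered the arrays differently. The first probe was nearest to 0 on replicate 3, the second on replicate 1. They differed by 0.41, 0.25, 0.71 and 0.44 on replicates 1 to 4, while the 2 spots of one probe differed by 0.02 to 0.07 for the first and by 0.13 to 0.25 for the second. Among genes with 2 measured probes on an array, the median difference between probes was 0.26 to 0.35, and 23.3% to 50.0% of those genes differed by more than apolpp. The average of both probes was -0.63 ± 0.25 in the turned reading and -0.05 ± 0.77 in the unturned reading (SD, n = 4 each).

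**Figure D1:**
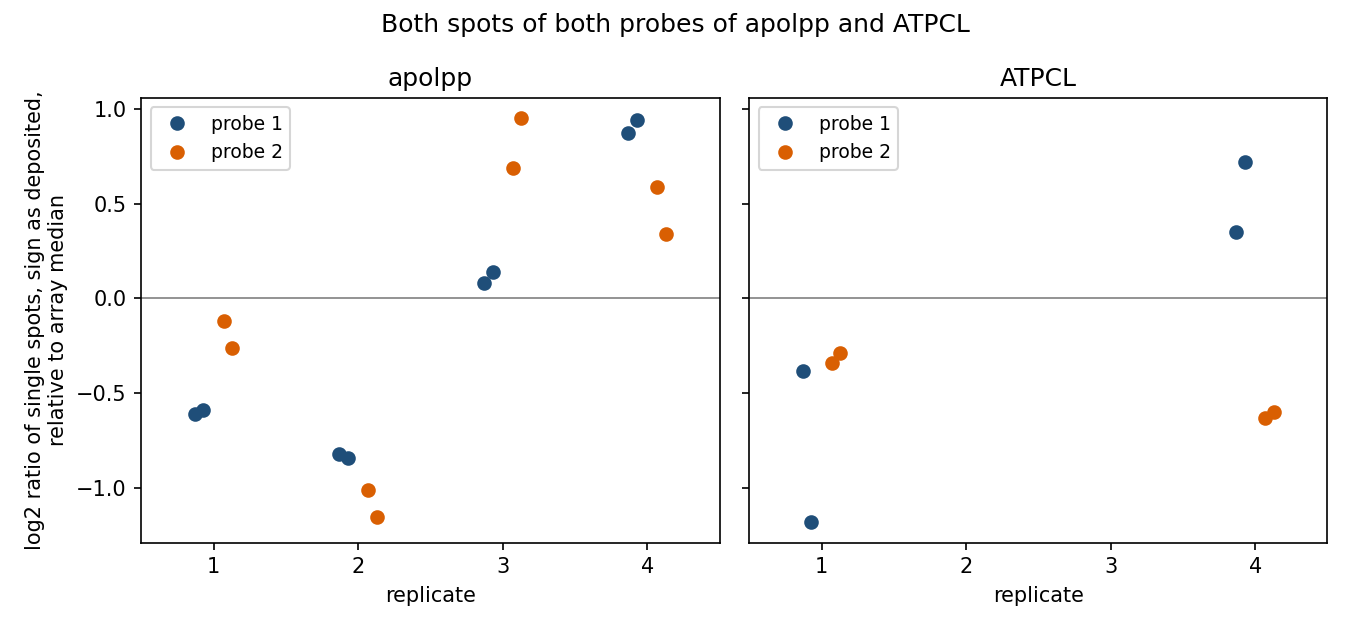
Single-spot log2 ratios of apolpp (left) and ATPCL (right) relative to the array median, with the sign as deposited, by replicate; colours mark the probes and each point is a spot. Both apolpp probes lie below 0 on replicates 1 and 2 and above 0 on replicates 3 and 4, whereas the ATPCL probes lie on opposite sides of 0 on replicate 4.

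The genes that load lipophorin were measured on few arrays. Mtp had a value on replicate 1 alone, 0.09, with deposited spot values of 1.29 and 0.96. Apoltp had 0.05 on replicate 1, and on replicate 4 it had -0.27 in the turned and 0.27 in the unturned reading. On replicate 1, 56.6% of the probes lay below Apoltp and 61.2% below Mtp, so both were near the middle of that array. On replicate 4, 75.5% of the probes lay below Apoltp as deposited.

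The sterol carrier gene Npc2a differed from apolpp on replicates 1 and 2 and had the same sign as apolpp on replicates 3 and 4. It had 0.35 and 0.53 on replicates 1 and 2, where both readings agree in sign. On replicates 3 and 4 it had -0.61 and -0.74 in the turned reading, or 0.61 and 0.74 in the unturned reading. The mean was therefore 0.56 ± 0.16 in the unturned reading and -0.12 ± 0.65 in the turned reading (SD, n = 4 each). As deposited, Npc2a exceeded 86.4% to 97.2% of the probes on each of the 4 arrays. In the unturned reading 8 of 1114 probes had a higher mean, and in the turned reading 367 of 1114 had a lower one.

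Acetyl-CoA supply was represented by AcCoAS, which makes acetyl-CoA from acetate, and ATPCL, which makes it from citrate. AcCoAS had -0.40, -0.38, -0.34 and -0.70 on replicates 1 to 4 in the turned reading, with a mean of -0.45 ± 0.17 (SD, n = 4), the smallest SD among the 7 fully measured member probes in that reading. Replicates 1 to 3 lay close together and replicate 4 lay lower. Its 2 spots differed by at most 0.10 on any array. In the unturned reading replicates 3 and 4 stood at 0.34 and 0.70, and the mean was 0.06 ± 0.55 (SD, n = 4).

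ATPCL had 2 probes with the same accessions and values on replicates 1 and 4 only. The first had -0.79 and -0.54 in the turned reading, and its spots differed by 0.80 on replicate 1 and by 0.37 on replicate 4. The second had -0.32 and 0.61, with spots that differed by 0.05 and 0.04. On replicate 1 both probes lay below the median, but on replicate 4 they lay 1.15 apart on opposite sides of it, in either reading. Of 84 genes with 2 measured probes on replicate 4, 3.6% differed by more. No single direction can be given for ATPCL on that array.

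The fatty acid synthase gene FASN1 had -0.07 and -0.27 on replicates 1 and 2 and -0.92 and -0.67 on replicates 3 and 4 in the turned reading. The mean was -0.48 ± 0.38 (SD, n = 4). The pair means were -0.17 for replicates 1 and 2 and -0.80 for replicates 3 and 4. In the unturned reading replicates 3 and 4 stood at 0.92 and 0.67, and the mean was 0.31 ± 0.57 (SD, n = 4).

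Desat1, which acts on the chains that FASN1 builds, had -0.49, -0.12, -0.45 and -0.72 on replicates 1 to 4 in the turned reading. Its mean was -0.45 ± 0.24 (SD, n = 4), with all 4 arrays below 0 and replicate 2 the nearest to it. Its spots differed by at most 0.04 on any array. The unturned mean was 0.14 ± 0.55 (SD, n = 4), with replicates 3 and 4 at 0.45 and 0.72. The other 2 probes of Desat1 had no value on any array.

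Hnf4, the one transcription factor of the 9 genes, had small ratios. On replicates 1 and 2 it had 0.06 and 0.14, and on replicates 3 and 4 -0.28 and -0.35 in the turned or 0.28 and 0.35 in the unturned reading. The means were -0.11 ± 0.25 and 0.21 ± 0.13 (SD, n = 4 each). Its spots on replicate 2 had deposited values of 1.58 and 0.77, a difference of 0.81 that 2.6% of the pairs on that array exceeded. With the first spots alone the turned mean was 0.00 and with the second spots alone -0.21. The other 2 Hnf4 probes, annotated with the same accessions, had no value on any array.

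**Figure D2:**
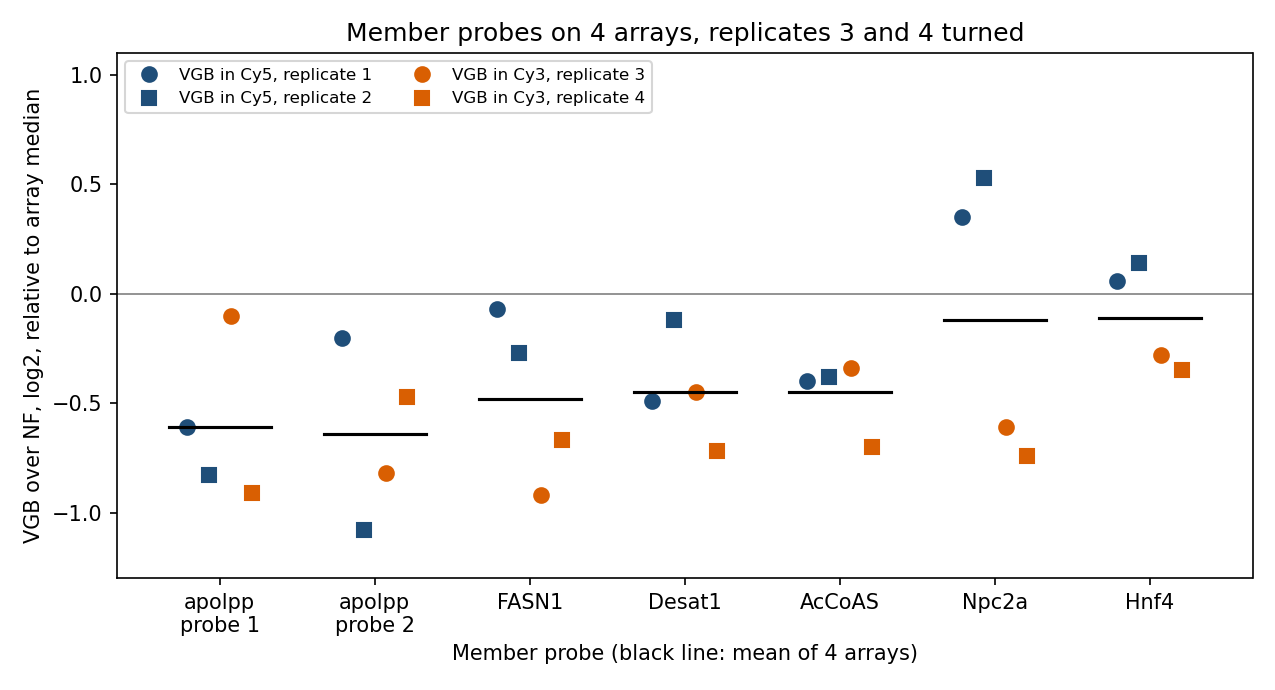
VGB over NF log2 ratios relative to the array median for the 7 member probes with a value on all 4 arrays, in the turned reading; points are arrays, colours mark the dye order and black lines are means. The apolpp, FASN1, Desat1 and AcCoAS probes lie below 0 on every array, while Npc2a and Hnf4 lie above 0 where VGB carried Cy5 and below 0 where it carried Cy3.

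The 7 fully measured probes thus fell into 2 arrangements. On replicates 1 and 2, where both readings agree, 5 probes (both of apolpp, and FASN1, Desat1 and AcCoAS) lay below the array median and 2 (Npc2a and Hnf4) above it, with medians over the 7 of -0.20 and -0.27. On replicates 3 and 4 all 7 lay above the array median as deposited, by 0.10 to 0.92 and by 0.35 to 0.91. The turned reading therefore put 5 of 7 below the median on all 4 arrays, against 11.5% of the 591 probes measured on all 4, and 0 of 7 above it, against 3.55%. The unturned reading put 2 of 7 above it on all 4 arrays, against 18.3% of the 591, and 0 of 7 below it, against 3.72%. Because the members were chosen with these ratios known, nothing further is read from those counts.

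**Figure D3:**
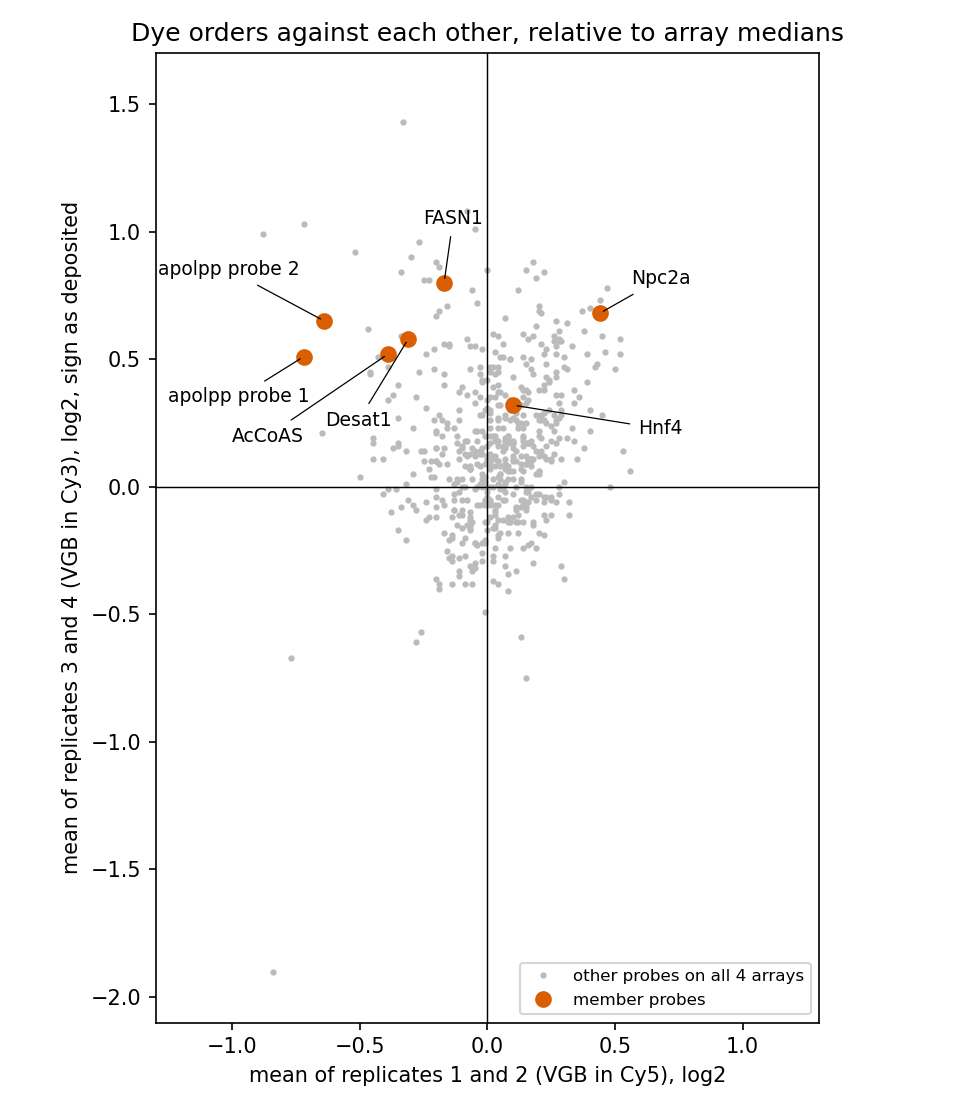
Mean log2 ratio on replicates 1 and 2 (horizontal axis) against replicates 3 and 4 with the sign as deposited (vertical axis), relative to array medians, for the 591 probes measured on all 4 arrays (grey) and the 7 member probes (orange). The apolpp, FASN1, Desat1 and AcCoAS probes lie in the upper left with 24.9% of all such probes, and Npc2a and Hnf4 in the upper right with 43.7%.

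The median over the 7 probes was -0.45 in the turned reading, against -0.04 over all 1114 probes tested, and 0.14 in the unturned reading, against 0.07. All 7 means were below 0 in the turned reading, as were 61.0% of the probes tested. Unturned, 1 of 7 was below 0, against 36.0%. The SD over arrays ran from 0.17 to 0.65 for members in the turned reading and from 0.13 to 0.84 in the unturned reading. Npc2a and Hnf4 varied less in the unturned reading and the other 5 probes less in the turned reading. Turning changes signs only, so the SD must be smaller in whichever reading has the mean further from 0. The SDs therefore add nothing to the means on which reading holds.

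**Figure D4:**
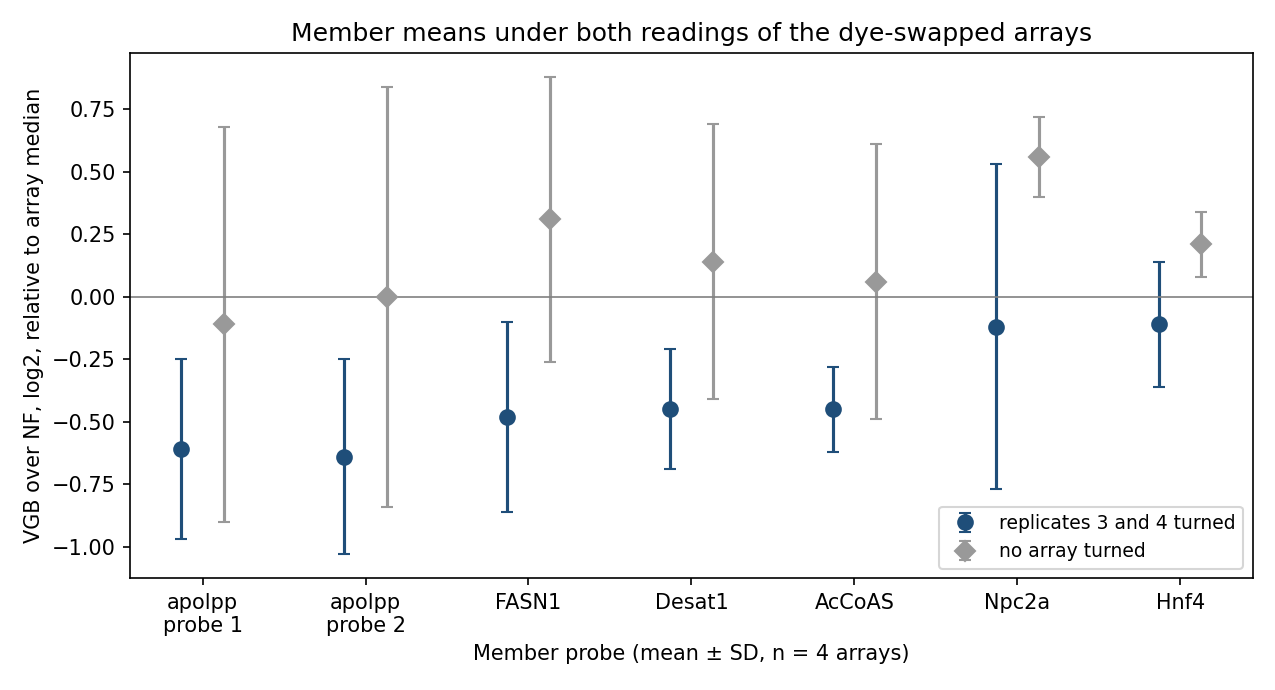
Mean ± SD over 4 arrays of the VGB over NF log2 ratio relative to the array median for each member probe, in the turned (blue circles) and unturned (grey diamonds) readings. Npc2a stands at 0.56 with a narrow bar unturned and at -0.12 with a wide bar turned, and apolpp shows the reverse, narrower at about -0.6 turned and wider near 0 unturned. The change in bar width follows from the change in mean, since turning alters signs only.

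Across the whole table, limma with Benjamini-Hochberg adjustment called 0 of the 7 member probes in the turned reading, where it called 0.359% of 1114 probes (3 lower, 0.269%, and 1 higher, 0.0898%; 81 lower and 13 higher at an unadjusted p under 0.05). In the unturned reading it called 0 of 7 and 0% of 1114, with 25 lower and 131 higher at an unadjusted p under 0.05. With the dye order as a covariate, over the 591 probes on all 4 arrays, 5 of 7 members were called lower in the turned reading, against 4.40% of probes, and 0 of 7 higher, against 0.169%. That model in the unturned reading called 1 of 7 members higher, against 6.43%, and 0 of 7 lower, against 0.508%. In that model the treatment and dye terms change places between readings. The members were listed with these ratios in view, so their calls restate that choice and nothing is read from them.

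Further genes of lipid metabolism were sparsely measured. The lists of lipid transport, synthesis, regulation, storage and phospholipid genes held 114 names beside the 9 genes. Some were older names of a listed gene. Matched in their exact spelling, 53 had a probe, 31 a value on any array and 5 a value on at least 3. The listed gene Pis, written there with other capitals, is missing from these counts. No probe of these 5 genes was called by limma in either reading, against 0.359% and 0% of all probes. The lipophorin receptor gene LpR1 stood at 0.07 ± 0.31 in the turned and 0.19 ± 0.22 in the unturned reading (SD, n = 3 each), with no value on replicate 1. Npc2b, a relative of Npc2a, stood at -0.04 ± 0.16 and 0.13 ± 0.08 (SD, n = 4 each). Like Npc2a it was above 0 on all 4 arrays in the unturned reading, but its values were smaller.

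The insulin-like peptide gene Ilp2 stood at -0.18 ± 0.46 in the turned and 0.21 ± 0.44 in the unturned reading, and the acyltransferase gene Agpat2 at 0.04 ± 0.38 and -0.20 ± 0.29 (SD, n = 3 each). Pect, which makes the activated head group of phosphatidylethanolamine, stood at 0.11 ± 0.05 and 0.01 ± 0.14 (SD, n = 4 each). Pis, the gene missing from the counts above, stood at 0.12 ± 0.17 in the turned reading (SD, n = 4). Its mean was 0.04 on replicates 1 and 2 and, as deposited, -0.19 on replicates 3 and 4. Of the list of fatty acid synthesis and elongation genes beside the members, 6 of 25 had a value on any array and none on at least 3.

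Markers of the cells a head can hold were also sparse. Of 12 fat body markers, 7 had a probe and 3 a value: apolpp itself, and Lsp2 and Fbp2, each on replicate 4 alone. Lsp2, a larval serum protein gene, stood there at -0.67 in the turned and 0.67 in the unturned reading, close to FASN1 on the same array, and Fbp2 at -0.07 and 0.07. The part of fat body content in the apolpp values was not tested. Of 11 names of photoreceptor and eye markers, 4 genes had values on at least 3 arrays, with a median of -0.16 in the turned and 0.29 in the unturned reading. The 4 were trpl, a light-activated channel gene, at -0.18 ± 0.48 turned and 0.39 ± 0.28 unturned, chp at 0.00 ± 0.34 and 0.17 ± 0.28, Pdh at -0.21 ± 0.39 and 0.19 ± 0.40 (SD, n = 4 each), and the visual arrestin gene Arr1 at -0.14 ± 0.90 and 0.74 ± 0.16 (SD, n = 3 each). In the unturned reading Arr1 lay above 0 on the 3 arrays where it was measured, with no value on replicate 1, and each of the other three genes lay below 0 on 1 of 4 arrays. The neuronal marker Gad1 stood at -0.27 ± 0.41 turned and 0.04 ± 0.51 unturned (SD, n = 4 each). The glial marker Gs2 stood at -0.04 ± 0.23 and 0.08 ± 0.21 (SD, n = 4 each). Each was the only gene of its list, of 9 neuronal and 6 glial names, measured on at least 3 arrays. Muscle markers Act88F and Mlc2 stood at -0.01 ± 0.51 and 0.22 ± 0.28 turned and at 0.24 ± 0.43 and -0.03 ± 0.37 unturned (SD, n = 4 each). The digestive gene Jon65Aiv stood at -0.35 ± 0.61 turned and 0.50 ± 0.45 unturned (SD, n = 4 each). Limma without the dye covariate called none of these markers in either reading, against 0.359% and 0% of all probes.

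Coverage of the members was higher than that of the array as a whole. A value on at least 3 arrays was present for 7 of 15 member probes, 46.7%, against 7.74% of the probes with 1 gene and 8.06% of all probes. The authors' filters on signal and spot quality set whether a spot has a value, and the members were listed with their ratios known, so that share is given with no test.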

How the data were processed

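Heads of VGB and NF flies were compared on 4 two-colour cDNA arrays. Per the labels, the authors quantified slides with GenePix Pro 6.0, normalized ratios with Acuity 4.0, and removed spots with at least 3% saturated pixels, bad flags, R2 under 0.6 or signal-to-noise under 3. Their filters also held an intensity limit of 100. The deposited values are log ratios, here treated as log2; base, centring and sign on swapped arrays are not given in the sources used here, and deposited medians lay between 0.44 and 1.03. No genome build is given, so no positions are printed.

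The 2 adjacent spots of each probe were averaged and each array's median subtracted. Genes came from GEO's platform annotation (old), updated by gene identifier with a RefSeq table (Release 6); 7447 of 7558 single-gene probes matched. The test, over the 1114 probes on at least 3 arrays, was limma 3.58.1 in R 4.3.3 (intercept only, two-sided, Benjamini-Hochberg threshold 0.05). It was also run on simulated data with independent errors and no dye effect, which cannot show how it handles one. Every member was named, as was every gene of the fixed lists found on at least 3 arrays. List names were matched in exact spelling, and Pis, which that missed, was added by name. Members, lists and alternatives were chosen with earlier results of these data known. Alternatives covered centring, normalization, array minimum, duplicate spots, dye covariate, left-out arrays and a one-class SAM written out here.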

Additional observations from a re-analysis of the deposited data

How the results depend on the processing

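No paired analysis was possible because each array already holds a VGB and an NF pool as 1 ratio. The array number and unsettled sign limit every value. Of 84 member means recomputed in the turned reading, 81 moved by less than 1 SD over arrays and 3 by more (Desat1, AcCoAS and Hnf4 as deposited). Many of the 81 could not have moved by more. Changing the array minimum leaves the mean of a probe on all 4 arrays as it was. Leaving out 1 of 4 values cannot shift a mean by 1 SD. The count is therefore not read as a sign of stability. In the unturned reading all 7 means moved by more than 1 SD. Calls in the turned reading (4 probes, 0 members) became 0 as deposited, with quantile normalization, with at least 2 arrays and in the unturned reading, 1 with block centring, 2 with all 4 arrays, and 27 with the dye covariate, 5 of them members. Leaving out 1 array gave 0 (without replicate 2 or 4), 2 (without replicate 3) or 3 probes and 0 members. Unturned calls (0 probes, 0 members) became 1068 as deposited, including all 7 members, since no array is then centred; 1 with quantile normalization; 41 with the dye covariate, 1 a member; and 9 by one-class SAM, 1 a member. Leaving out 1 array gave 0 to 4 probes (4 without replicate 1 or 4). The member median stood at -0.18 turned and 0.89 unturned as deposited, against -0.45 and 0.14 centred, and at -0.50 to -0.37 turned and -0.06 to 0.26 unturned with 1 array left out. With 1 array left out, turned means ran from -0.78 to -0.51 and -0.79 to -0.50 for the apolpp probes, -0.62 to -0.34 for FASN1, -0.55 to -0.36 for Desat1, -0.49 to -0.37 for AcCoAS, -0.33 to 0.09 for Npc2a (above 0 without replicate 3 or 4) and -0.19 to -0.03 for Hnf4. Unturned means ran from -0.44 to 0.14, -0.27 to 0.36, 0.11 to 0.51, -0.06 to 0.35, -0.15 to 0.22, 0.50 to 0.63 and 0.16 to 0.26 in the same order. As deposited, turned Npc2a and Hnf4 stood at 0.16 and 0.17. The causes were not tested beyond what is stated.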
